A study of Sus scrofa with 4 samples.

Results

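In pig granulosa cells, which line the follicle and nurse the oocyte, RNA sequencing measured 10 transcription factor genes of the gonad and of the granulosa lineage. They were chosen by name: FOXL2, WT1, GATA4, GATA6, RUNX1, RUNX2, SOX4, SOX9, LHX9 and CEBPB, 10 of the 29884 genes in the deposited table. All 10 had at least 1 count, and 9 had enough counts to be tested, all but LHX9. The cells were taken from antral follicles, part of them was used to read the cell cycle by flow cytometry, and the rest was sequenced in 2 libraries labelled high and 2 labelled low in G0/G1, the stage that precedes DNA synthesis. The labels name no treatment, breed or age and do not tie the replicates to different animals, so each p-value reflects the spread between libraries only, and this may be technical.

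As background, the ovary keeps its identity through a small set of transcription factors. FOXL2, a forkhead factor, maintains granulosa cells and holds down the testis programme, in which SOX9 directs Sertoli cell fate. WT1, GATA4 and LHX9 act in the early gonad before the sexes diverge, and GATA4 and GATA6 together are needed for follicle growth. RUNX1 supports granulosa identity in the foetal ovary, and RUNX1, RUNX2 and CEBPB are induced in granulosa cells by the ovulatory surge of luteinising hormone. SOX4 is a widely expressed factor of progenitor and differentiating cells.

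Library totals ran from 27442850 to 32674921 counts, and where no count was found the level may still be as high as 0.0918 to 0.109 CPM (3 counts over the library total, counting error only). CPM is the count relative to the scaled library total. It is not corrected for gene length, so levels are compared between libraries and not between genes. Granulosa genes were abundant: INHA, the inhibin alpha subunit, stood at 6705 to 10576 CPM, and SERPINE2, a serine protease inhibitor of granulosa cells, at 5605 to 15726 CPM in the 4 libraries. Of the oocyte markers only GDF9, a growth factor of the oocyte, had enough counts to be tested. It had 259 and 266 counts for the high pair and 204 and 331 for the low pair, nearly all of the oocyte sum, while ZP2, which encodes an egg coat protein, had 0 in each. Low replicate 2 stood apart in stromal markers, whose sum over 12 genes was 1637 CPM there and 63.2 to 178 CPM in the other libraries, and in the theca enzyme gene CYP17A1, with 1485 counts against 4 to 29. Among other marker lists, theca genes summed to 140 and 141 CPM for the high pair and to 190 and 424 for the low pair, 10 endothelial genes to between 56.6 and 90.1 CPM, 13 leukocyte genes to between 9.07 and 15.9, oocyte genes to between 6.43 and 11.5 and surface epithelium genes to between 1.07 and 8.43. Sums hide differing orders: of the endothelial genes TIE1 had 38.7 and 12.1 CPM in high and 56.5 and 22.3 in low. KDR had 1.98 and 29.5 CPM in high and 2.92 and 10.5 in low. PDGFRA, unlike the stromal sum, peaked in high replicate 2, with 1.98 and 18.6 CPM in high and 0.878 and 6.17 in low. KRT19 of the surface epithelium list had 0 and 25 counts in high and 0 and 37 in low. PDGFRA and KRT19 were named after their values were seen. Their bearing on the factors was not tested. Granulosa markers summed to between 30847 and 52118 CPM, with CYP19A1 at 0 counts in each library and its paralog CYP19A3 at 1142 to 3986 CPM. Markers of proliferation summed to 1045 and 341 CPM for the high pair and to 2698 and 2428 for the low pair. In a bulk library fewer cells of a type and less RNA per cell cannot be told apart.

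**Figure D1:**
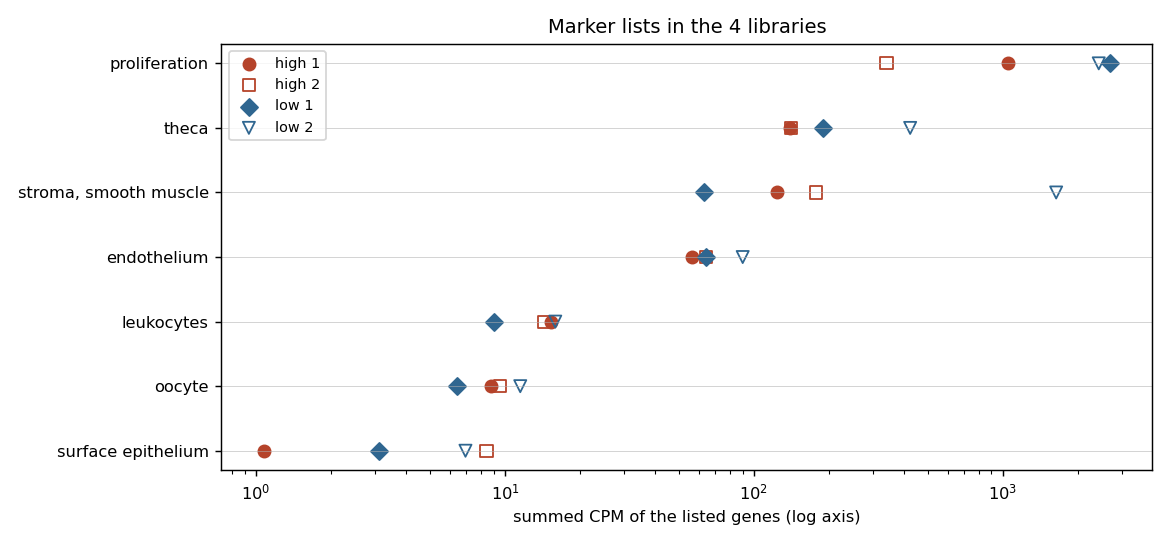
Summed CPM (log axis) of 7 marker lists in each of the 4 libraries, with filled and open symbols for replicates 1 and 2. Low replicate 2 lies at 1637 CPM for stroma and smooth muscle against at most 178 in the others, and high replicate 2 is lowest for proliferation at 341.

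The main pattern among the factors lay in 1 library, high replicate 2. That library was not fixed in advance, so the counts for it describe the values and test nothing. Of the 9 tested factors, FOXL2, WT1, GATA4 and GATA6 had their lowest level in high replicate 2, and RUNX1, RUNX2, SOX4, SOX9 and CEBPB had their highest level there. High replicate 2 was thus at an end of the order in 9 of 9, where it was at an end in 64.2% of the 14352 genes tested, and of the highest and the lowest library it was the one with the wider gap to its neighbour (on a log scale) in 7 of 9, against 40.6% of genes tested. The high pair differed by more than 2-fold in 5 of 9 factors, and by as much in 19.7% of genes tested, while the 2 low libraries did so in 4 of 9 factors and 13.5% of genes.

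**Figure D2:**
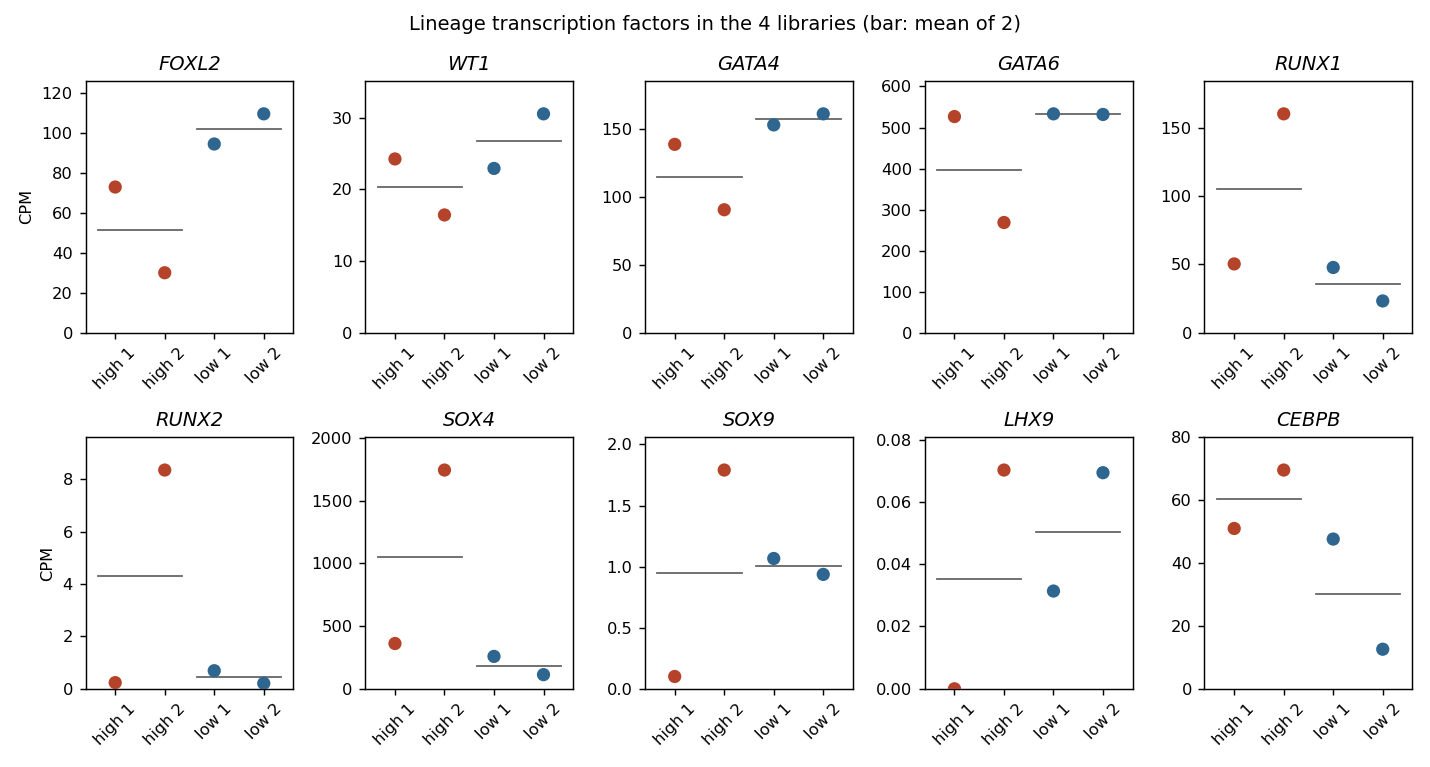
CPM of each of the 10 factors in the 4 libraries, red for high and blue for low G0/G1, with a bar at the mean of 2 libraries and each axis starting at 0. In FOXL2, WT1, GATA4 and GATA6 the lowest point is high replicate 2, and in RUNX1, RUNX2, SOX4, SOX9 and CEBPB the highest point is.

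Compared between groups, no factor passed. With edgeR's quasi-likelihood test and Benjamini-Hochberg adjustment over 14352 genes, 0 of the 9 factors were higher and 0 lower at an adjusted p under 0.05, as were 0 of all genes tested (0%). At an unadjusted p under 0.05 there was 1 factor higher, SOX4, and 0 lower, against 9.92% and 10.8% of genes tested. DESeq2 called 1 factor, SOX4, higher and 0 lower, against 5.79% and 5.48% of the genes it gave an adjusted p, and limma-voom called 0 (0% of genes tested), with SOX4 and FOXL2 at an unadjusted p under 0.05. The high pair lay above the low pair in 3 factors (RUNX1, SOX4 and CEBPB) and below them in 3 (FOXL2, GATA4 and GATA6), against 26.8% and 29.8% of genes tested. Over the 9 factors the median log2 fold change was -0.09, beside -0.01 over all genes tested. The median of the factors was 0.83 without high replicate 1 (0.87 with DESeq2) and 0.09 without low replicate 1, so its sign turned when either library was left out. In these fits and in the main one the median was the value of SOX9 itself, which had only 3 counts in high replicate 1.

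FOXL2, the forkhead factor that keeps granulosa identity (chromosome 13, 79708693 to 79709825 in Sscrofa11.1), stood at 72.8 and 29.9 CPM for high replicates 1 and 2 and at 94.3 and 109 CPM for the low pair. Both high libraries were below both low ones, and high replicate 2 was 2.43-fold below high replicate 1. Group means were 51.3 ± 30.3 CPM (SD, n = 2) for high and 102 ± 10.7 for low, a log2 fold change of -0.99 ± 0.44 (SE, 95% interval -2.11 to 0.14, edgeR adjusted p = 0.278). Without high replicate 1 the log2 fold change was -1.77 and passed (adjusted p = 0.0352, when 3.92% of genes tested passed as lower), and without high replicate 2 it was -0.48 (adjusted p = 0.384). Without low replicate 2 it was -0.87. DESeq2 also called it without high replicate 1 (-1.73, adjusted p = 1.1e-05). In the fits without high replicate 1 the high group is a single library whose spread is assumed to be that of the low group.

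WT1, a zinc finger factor of the early gonad that remains in granulosa cells (chromosome 2, 28411467 to 28456007), had 24.3 and 16.4 CPM for high replicates 1 and 2 and 22.9 and 30.6 CPM for the low pair. The groups overlapped, since high replicate 1 lay between the low libraries. The log2 fold change was -0.39 ± 0.31 (SE, 95% interval -1.18 to 0.39, edgeR adjusted p = 0.50). It was -0.71 without high replicate 1, -0.14 without high replicate 2 and -0.16 without low replicate 2. RefSeq places an uncharacterised long noncoding RNA, LOC102161978, across part of WT1, with 185 to 378 counts, and without the strand setting of the counting, reads of the overlap cannot be assigned. BASP1, a protein that turns WT1 from an activator into a repressor, stood at 620 and 986 CPM in high and at 284 and 260 in low, a log2 fold change of 1.56 ± 0.30 (edgeR adjusted p = 0.151, DESeq2 adjusted p = 3.8e-04). PAWR, another WT1-binding protein, stood at 31.5 and 40.5 CPM against 18.6 and 16.5.

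GATA4 and GATA6, zinc finger factors that activate steroid enzyme and inhibin genes, were almost level in 3 libraries and lower in high replicate 2. GATA4 (chromosome 14, 14858470 to 14938156) had 139 and 90.7 CPM for high replicates 1 and 2 and 153 and 162 CPM for the low pair. GATA6 (chromosome 6, 107282709 to 107314725) had 527 and 268 CPM for high replicates 1 and 2 and 533 and 532 CPM for the low pair. In both, the groups did not overlap, but for GATA6 the 3 upper libraries were nearly equal. The log2 fold changes were -0.45 ± 0.27 for GATA4 (SE, 95% interval -1.14 to 0.23, edgeR adjusted p = 0.380) and -0.42 ± 0.36 for GATA6 (-1.34 to 0.50, adjusted p = 0.538). Leaving out low replicate 2 gave -0.41 and -0.42. Without high replicate 2 they were -0.18 and -0.01, and without high replicate 1 they were -0.80 and -1.0, where DESeq2 called GATA6 (-0.96, adjusted p = 0.0126) and not GATA4 (adjusted p = 0.0827). RefSeq places a protein-coding gene, LOC100525229, across part of GATA6, with 4008 to 8290 counts, so part of either gene's reads may belong to the other.

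The balance between the GATA factors varied little between libraries. The log2 ratio of GATA4 to GATA6 counts was -1.92 and -1.56 for the high pair and -1.80 and -1.72 for the low pair, a difference of 0.02 between group means (exact permutation test, two-sided, p = 1, where 2 against 2 libraries cannot give less than 0.333). The GATA cofactor genes went different ways between libraries and are named after their values were seen. ZFPM1, which encodes FOG1, had 121 and 44.8 CPM in high and 158 and 156 in low, with its lowest level in high replicate 2 as in both GATA factors. ZFPM2, which encodes FOG2, the cofactor of GATA4 in the gonad, had 12.2 and 19.9 CPM in high and 8.50 and 10.9 in low, with its highest level in high replicate 2. Of the other GATA genes, GATA1, GATA2, GATA3 and GATA5 had 0 to 14 counts a library and were not tested.

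**Figure D3:**
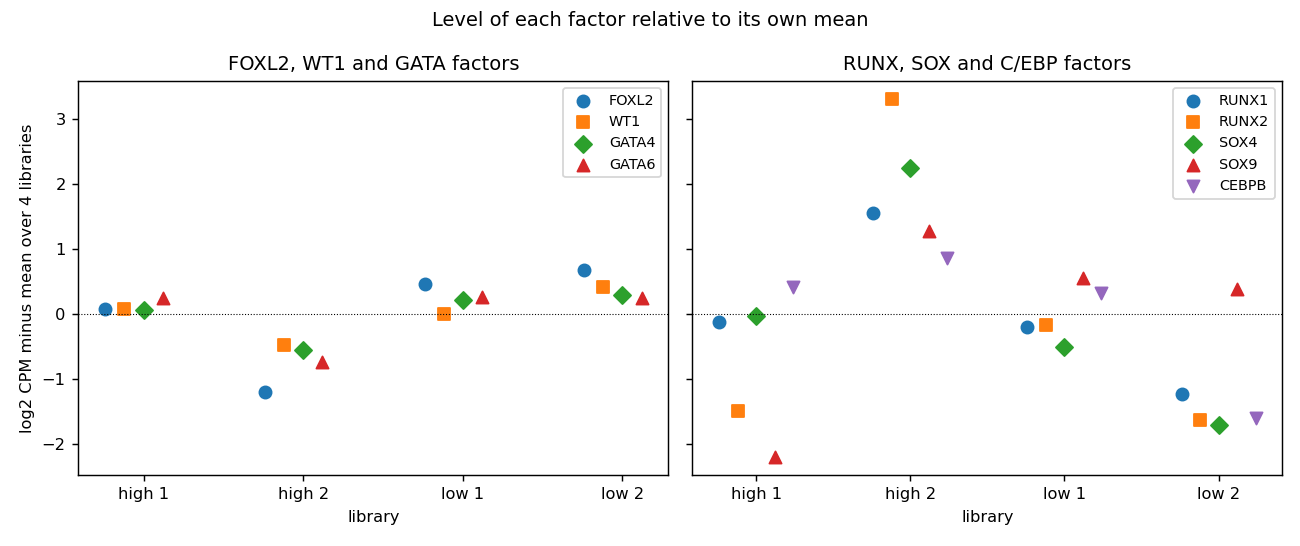
Log2 CPM of the 9 tested factors minus each factor's mean over the 4 libraries, with FOXL2, WT1 and the GATA factors on the left and RUNX, SOX and C/EBP factors on the right. On the left high replicate 2 is the lowest library, down to -1.20 for FOXL2, and on the right it is the highest, up to 3.30 for RUNX2.

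RUNX1, a runt-domain factor (chromosome 13, 198371835 to 198635648), had 50.3 and 160 CPM for high replicates 1 and 2 and 47.7 and 23.2 CPM for the low pair. The high pair lay above the low pair, yet high replicate 1 and low replicate 1 differed by little. The means were 105 ± 77.8 CPM (SD, n = 2) for high and 35.5 ± 17.4 for low, a log2 fold change of 1.57 ± 0.64 (SE, 95% interval -0.06 to 3.20, edgeR adjusted p = 0.252, DESeq2 adjusted p = 0.0805). Without high replicate 2 it was 0.51 (edgeR adjusted p = 0.617), and without low replicate 2, the library with stromal and theca transcripts, it was 1.17 (adjusted p = 0.570). DESeq2 called RUNX1 without high replicate 1 and without low replicate 1, at 2.20 and 2.23.

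RUNX2 (chromosome 7, 40106581 to 40353304), best known for bone formation and also induced around ovulation, had counts of 7 and 238 for the high pair and 22 and 6 for the low pair. High replicate 2 stood alone, at 8.36 CPM against 0.208 to 0.690 in the other 3, and the groups overlapped. The log2 fold change was 3.24 ± 1.62 (SE, 95% interval -0.88 to 7.36, edgeR adjusted p = 0.315), and without high replicate 2 it turned to -0.93 (adjusted p = 0.767), against 4.19 when high replicate 1 was left out and 2.66 without low replicate 2. DESeq2 called it without high replicate 1 (4.23, adjusted p = 6.8e-04). RefSeq places SUPT3H across part of RUNX2, with 1592 to 2270 counts. SUPT3H had more counts than RUNX2 in every library, and the part of shared reads in the RUNX2 values was not tested.

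Partners of the RUNX factors were measured well in each library. CBFB, the common subunit that RUNX proteins need to bind DNA, had 63.6 and 66.2 CPM in high and 74.4 and 75.3 in low, a log2 fold change of -0.21 ± 0.19 (SE, edgeR adjusted p = 0.563). TLE4, a Groucho corepressor that binds RUNX proteins, had 145 and 85.7 CPM in high and 49.1 and 30.9 in low, a log2 fold change of 1.53 ± 0.37 (edgeR adjusted p = 0.169, DESeq2 adjusted p = 0.00707). RUNX3 had 1 to 13 counts a library and was not tested. The log2 ratio of RUNX1 to RUNX2 counts was 7.65 and 4.26 in high and 6.08 and 6.69 in low, so the ratio was lowest in high replicate 2 and highest in high replicate 1 (difference of means -0.43, exact permutation p = 1, and 1.26 without high replicate 2).

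SOX4, a high-mobility-group factor (chromosome 7, 16886834 to 16895488), had the smallest p among the factors. It stood at 361 and 1743 CPM for high replicates 1 and 2 and at 258 and 113 CPM for the low pair. Both high libraries were above both low ones, and the gap between the high libraries, 4.83-fold, was wider than the gap between high replicate 1 and low replicate 1. The means were 1052 ± 978 CPM (SD, n = 2) for high and 185 ± 103 for low, a log2 fold change of 2.50 ± 0.84 (SE, 95% interval 0.38 to 4.63, unadjusted p = 0.0290, edgeR adjusted p = 0.205). DESeq2 called it with an adjusted p of 0.00938, but not without high replicate 2 (log2 fold change 0.98) and not without low replicate 2 (2.02). It also called SOX4 without high replicate 1 (3.26) and without low replicate 1 (3.28). With edgeR it passed without high replicate 1 (3.22, adjusted p = 0.0440, when 2.41% of genes tested passed as higher) and stood at 0.96 (adjusted p = 0.415) without high replicate 2.

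SOX9, the factor of Sertoli cell fate (chromosome 12, 8642154 to 8647315), was near the limit of detection. It had 3 and 51 counts for the high pair and 34 and 27 for the low pair, or 0.101 to 1.79 CPM. High replicate 1 held no more counts than a count of 0 allows, and high replicate 2 stood at 1.79 CPM above the low pair at 1.07 and 0.936. The log2 fold change was -0.09 ± 1.21 (SE, 95% interval -3.16 to 2.99, edgeR adjusted p = 0.977), an interval too wide to show a change or its absence at this depth. It was -3.26 without high replicate 2 and 0.83 without high replicate 1.

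Of the other testis genes some were as sparse and others were well measured. DMRT1, which directs male fate, had 0 counts in each library, which allows at most 0.109 CPM, SOX8 had 1 count in each and SOX10 at most 1. In the list of Sertoli cell and testis genes, which holds SOX9 itself, 9 of 23 were tested, of which 3 had a log2 fold change above 0 and 6 below, with a median of -0.10. The median was -0.89 without high replicate 2 and -0.76 with limma-voom. With edgeR 0 passed, 0 were higher and 1 lower at an unadjusted p under 0.05, and DESeq2 called 0. Over all genes tested 9.92% were higher and 10.8% lower at that unadjusted p. DESeq2 called 5.79% and 5.48% of the genes it gave an adjusted p. AMH, anti-Müllerian hormone, which adult granulosa cells also make, had 38.4 and 34.1 CPM in high and 49.6 and 76.3 in low, a log2 fold change of -0.79 ± 0.28 (SE, edgeR adjusted p = 0.214). DHH, a hedgehog ligand of Sertoli cells and of granulosa cells, had 9.19 and 1.40 CPM in high and 23.4 and 17.1 in low.

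Among relatives of the SOX factors, SOX12 had a pattern like that of FOXL2 and unlike that of SOX4, although SOX4 and SOX12 belong to the same subgroup of SOX proteins. It stood at 90.4 and 37.6 CPM in high and 110 and 128 in low. SOX13, a SOX factor of another subgroup, had 6.17 and 8.11 CPM in high and 1.63 and 3.33 in low, a log2 fold change of 1.53 ± 0.52 (SE, edgeR adjusted p = 0.207). SOX11, also of the SOX4 subgroup, had 4 to 21 counts a library.

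LHX9, a LIM-homeobox factor of the early gonad (chromosome 10, 20742323 to 20764006), had 0 and 2 counts for the high pair and 1 and 2 for the low pair. Each count was within what a count of 0 allows, so LHX9 was not detectable at this depth in any library, and no fold change is given. Its relatives LHX1 and LHX8 had 0 counts in each library, and LHX2 had 4 counts in high replicate 1 and 0 elsewhere. EMX2, another early gonad homeobox gene, was by contrast read at 30.2 and 14.4 CPM in high and 29.0 and 27.0 in low, and was named after its values were seen.

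CEBPB, a basic leucine zipper factor needed for luteinisation (chromosome 17, 51722633 to 51723673), had 51.0 and 69.6 CPM for high replicates 1 and 2 and 47.6 and 12.6 CPM for the low pair. Both high libraries were above both low ones, but the library that stood apart was low replicate 2, 3.79-fold below low replicate 1. The log2 fold change was 1.0 ± 0.63 (SE, 95% interval -0.59 to 2.59, edgeR adjusted p = 0.403). It was 2.33 without low replicate 1 (adjusted p = 0.254), where DESeq2 called it (2.31, adjusted p = 0.00286), and 0.36 without low replicate 2 (adjusted p = 0.750). In low replicate 2, a library not fixed in advance, CEBPB, RUNX1, RUNX2 and SOX4 all had their lowest level, as did 21.9% of genes tested. That library also held the most stromal and theca transcripts, whose part in these values was not tested.

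The other C/EBP genes did not follow one order. CEBPD had 21.5 and 103 CPM in high and 15.8 and 16.9 in low, so that high replicate 2 stood far above the other 3 libraries, as in RUNX2 and SOX4. Its log2 fold change was 1.92 ± 0.72 (SE, edgeR adjusted p = 0.230, DESeq2 adjusted p = 0.0418). CEBPG had 61.4 CPM in each high library and 47.4 and 25.8 for the low pair. CEBPA, which acts with CEBPB in ovulatory granulosa cells of the mouse, had 7 to 14 counts a library and was not tested. The log2 ratio of CEBPB to CEBPA counts was 6.71 and 8.05 in high and 7.48 and 5.60 in low, with overlapping groups (difference 0.84, or -0.10 without low replicate 2, exact permutation p = 0.667, 1 of 4 such ratios computed, none of which can pass with 2 against 2 libraries).

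**Figure D4:**
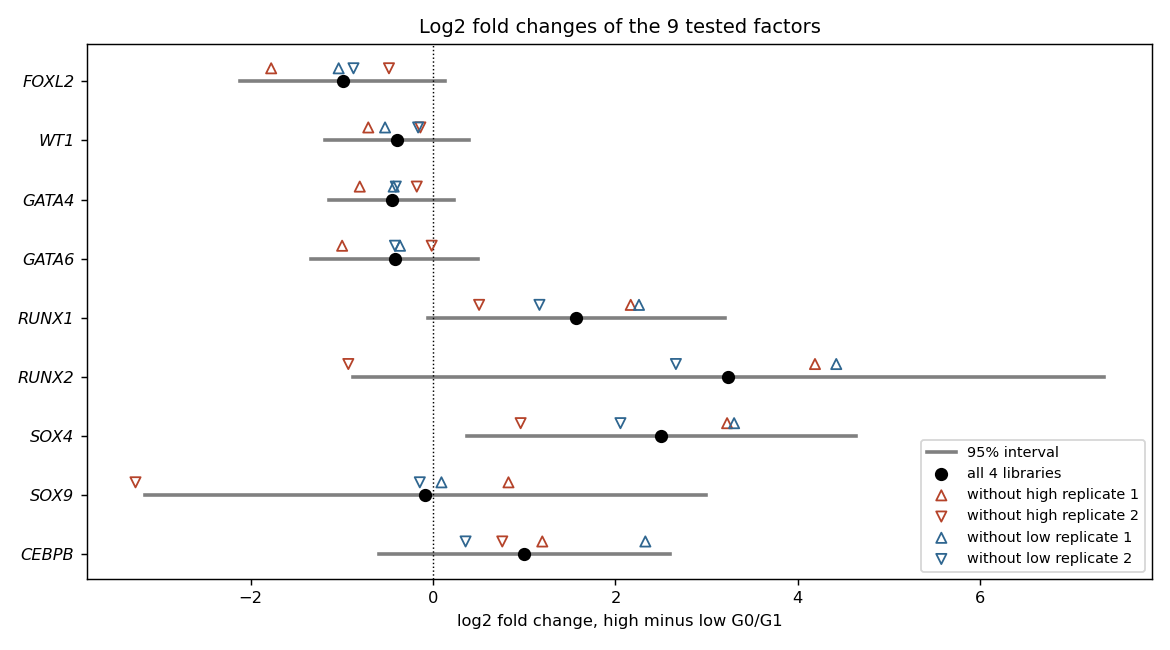
Log2 fold change of the 9 tested factors (high minus low G0/G1, edgeR) with its 95% interval, and open triangles for the value with 1 library left out. The interval of SOX4, 0.38 to 4.63, is the only one of the 9 that lies above 0, and RUNX2 crosses 0 without high replicate 2.

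Of 28 relatives of the factors by family, 12 were tested, with 8 log2 fold changes above 0 and 4 below and a median of 0.55. The median was 1.11 without low replicate 1, 1.08 without low replicate 2 and 1.10 over the genes with at least 1 CPM in 2 libraries. With edgeR 0 passed, while 3 were higher and 0 lower at an unadjusted p under 0.05, and DESeq2 called CEBPD and EGR1 higher and 0 lower. The shares over all genes, higher and lower, were 9.92% and 10.8% unadjusted and 5.79% and 5.48% with DESeq2. EGR1, an immediate early gene whose zinc fingers resemble those of WT1, stood at 1359 and 1689 CPM in high and 730 and 405 in low. Of 29 partner proteins and cofactors 27 were tested, with 19 values above 0 and 8 below and a median of 0.27, which was 0.48 without low replicate 1. With edgeR 0 passed, while 6 were higher and 1 lower at an unadjusted p under 0.05, to be read beside the same shares over all genes. DESeq2 called 5 higher, among them BASP1, PAWR, TLE4 and CREBBP, a histone acetyltransferase that serves many of these factors, and 0 lower. The fifth, CITED2, a coactivator of WT1 in the early gonad named after its values were seen, had 387 and 657 CPM in high and 205 and 61.8 in low.

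**Figure D5:**
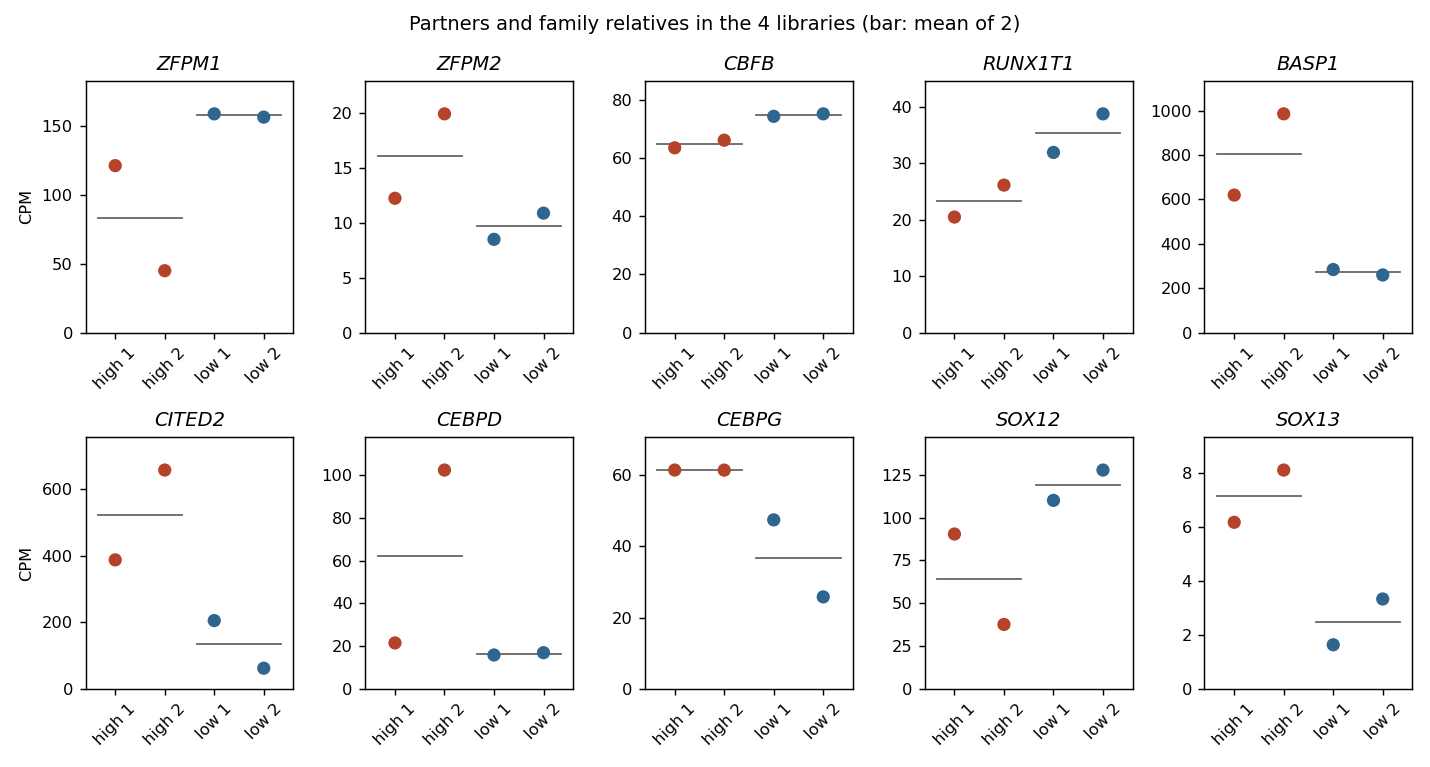
CPM of 10 partners and family relatives of the factors in the 4 libraries, red for high and blue for low G0/G1, with a bar at the mean of 2 libraries and axes starting at 0. CBFB varies between 63.6 and 75.3 CPM, while CEBPD reaches 103 in high replicate 2 and at most 21.5 elsewhere.

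Other gonadal transcription factors were also mixed. Of 30 listed, 23 were tested, with 11 log2 fold changes above 0 and 12 below and a median of -0.04. The median was -0.20 without high replicate 1, 0.06 without high replicate 2, 0.28 without low replicate 2 and 0.19 over the genes with at least 1 CPM in 2 libraries. With edgeR 0 passed, while 4 were higher and 3 lower at an unadjusted p under 0.05, and DESeq2 called 2 higher and 1 lower. Among all genes the shares were 9.92% and 10.8% unadjusted, and 5.79% and 5.48% with DESeq2. CBX2, a polycomb protein of early gonad development, had 4.16 and 3.47 CPM in high and 22.1 and 19.1 in low, a log2 fold change of -2.43 ± 0.31 (SE, edgeR adjusted p = 0.125). The high and low values of CBX2 were well apart and close within each group. FOXP1, a forkhead factor, had 285 and 395 CPM in high and 137 and 72.0 in low.

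Genes that FOXL2 or GATA factors are known to regulate in granulosa cells had values on both sides of 0. Of 25 listed, 23 were tested, with 12 log2 fold changes above 0 and 11 below, a median of 0.27, and 0 passing edgeR's test. At an unadjusted p under 0.05 there were 3 higher and 5 lower, beside 9.92% and 10.8% of all genes tested. DESeq2 called 3 higher and 2 lower, beside 5.79% and 5.48% of the genes it gave an adjusted p. AMHR2, the receptor of anti-Müllerian hormone, had 89.9 and 56.6 CPM in high and 30.7 and 26.2 in low, opposite in direction to FOXL2. MATN2, which encodes the matrix protein matrilin 2, had 11.8 and 14.5 CPM in high and 22.6 and 28.4 in low. MATN2 and the rest of the 11 genes below 0 had the direction of FOXL2, and the 12 above 0 had the opposite one. The list's median was -0.32 without high replicate 1 and -0.36 without high replicate 2, against 0.56 when low replicate 2 was left out.

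Genes tied to RUNX factors and CEBPB in ovulatory granulosa cells were counted in the same way, in a list that holds RUNX1, RUNX2 and CEBPB themselves. Of 27 listed 23 were tested, with 15 log2 fold changes above 0 and 8 below and a median of 0.53. With edgeR 0 passed, and 4 were higher and 1 lower at an unadjusted p under 0.05, beside 9.92% and 10.8% of all genes tested. DESeq2 called 4 higher and 1 lower, beside 5.79% and 5.48% of the genes it gave an adjusted p. ABCB1, which encodes the drug efflux pump P-glycoprotein, had 32.8 and 56.2 CPM in high and 4.83 and 4.92 in low, a log2 fold change of 3.19 ± 0.35 (SE, edgeR adjusted p = 0.125). HAPLN1, a link protein of the hyaluronan matrix, had 1.91 and 0.807 CPM in high and 6.49 and 5.34 in low. Without high replicate 2 the list's median was -0.25, against 0.90 without high replicate 1 and 1.03 without low replicate 1.

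The genes whose order over the 4 libraries was most like that of a factor were sought among 11817 other genes whose log2 CPM averaged at least 1 (11818 for SOX9), by the root mean square difference of log2 CPM after each gene was centred on its own mean. For RUNX2 the closest was PTGS2, the inducible prostaglandin synthase of ovulation, with 3.02 and 142 CPM in high and 9.57 and 3.50 in low, at a difference of 0.26. For SOX4 the closest was FOSL2, an AP-1 factor, with 125 and 501 CPM in high and 87.1 and 34.4 in low, at 0.11. For both factors 0 genes lay within 0.1. That limit does not scale with variation, and around their means SOX4 ran from -1.71 to 2.24 and RUNX2 from -1.63 to 3.30. How close these matches are therefore cannot be read from the limit.

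For RUNX1 the closest genes were DNAJC6 and MAN1A1, at 0.06 and 0.07, and for CEBPB the closest was NSDHL, an enzyme of cholesterol synthesis, at 0.06. FOXL2 was followed most closely by SOX12, at 0.05, and by FANCL, a ubiquitin ligase of DNA repair, also at 0.05. Within 0.1 there were 6 genes for FOXL2, 87 for WT1, 210 for GATA4 and 72 for GATA6. The measure is not scaled by how much a gene varies, so these counts cannot be compared between factors that vary by different amounts. Among the 36 pairs of tested factors the closest were WT1 with GATA4 and GATA4 with GATA6, at 0.13 each, and the farthest apart were FOXL2 and RUNX2, at 2.67. Such likeness rests on 4 libraries and is a description only.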

How the data were processed

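The table the authors deposited holds raw counts for each gene in 4 libraries of granulosa cell RNA. Reads were aligned with HISAT2 to Sscrofa11.1, per the submitters' processing notes, while counter, annotation and strandedness were not given in the sources used here. Of 29884 rows 29862 matched a symbol of RefSeq's Sscrofa11.1 annotation, which gave the coordinates and overlaps. 

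The counts were compared between high and low G0/G1 with edgeR 4.0.16 under R 4.3.3 (genes kept by filterByExpr at count 10 and total 15, TMM scaling, glmQLFit and glmQLFTest, no covariate), adjusted over 14352 genes, and the code was tested on simulated data. Log2 fold changes are high minus low, the standard error is the fold change over the root of F, and log2 CPM uses a prior count of 2. Ratios add 0.5 to each count. Alternatives were DESeq2 1.42.0, limma-voom (limma 3.58.1), other scalings and filters, and each library left out, the last also with DESeq2, which was added after seeing the data. Replicate numbers follow the order of listing and pair nothing.

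The factors and the 15 gene lists were chosen with earlier results of these data known, so nothing here is independent support. All 10 factors are named, up to 4 genes per list by smallest p (average log2 CPM of 1 or more), family relatives, and the 2 closest patterns per factor. INHA, SERPINE2, CYP19A3, GDF9, ZP2, DMRT1 and CBFB were picked after their values were seen. 1 gene that the rule names is not reported here. No sequence is printed.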

Additional observations from a re-analysis of the deposited data

How the results depend on the processing

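Over all genes edgeR called 0 higher and 0 lower, with 1424 and 1553 at an unadjusted p under 0.05. DESeq2 called 767 and 725, and edgeR without a filter on low counts 2 and 3. With 1 library left out the edgeR counts ran from 0 to 363 higher and 0 to 591 lower, those above 0 only without high replicate 1, and DESeq2 called 982 and 1261 (high replicate 1 left out), 386 and 471 (high replicate 2), 305 and 114 (low replicate 1) and 202 and 141 (low replicate 2). For the factors, DESeq2 called 1 higher, and with 1 library left out the counts over both tools ran from 0 to 3 higher and 0 to 2 lower. At an unadjusted p under 0.05 there were 1 higher and 0 lower; these were 3 and 1 with DESeq2, 2 higher with library totals alone, 2 and 1 with no filter and 1 lower with limma-voom, and 0 to 4 higher and 0 to 3 lower with 1 library left out. The share of all genes at that unadjusted p was taken only for the main edgeR fit, 9.92% higher and 10.8% lower. For the DESeq2 fits with 1 library left out, calls over all genes are given as counts without a share. Whether the factor counts at these other settings exceed the rate over all genes therefore cannot be read from them. The direction turned for GATA6 (0.0076 with DESeq2) and RUNX2 (-0.93, and -0.92 with DESeq2) without high replicate 2, and for SOX9 in the fits that lack high replicate 1 (0.83, and 0.87 with DESeq2) or low replicate 1 (0.09, and 0.071 with DESeq2). With 1 library left out edgeR's log2 fold change ran from -0.93 to 4.42 for RUNX2 and from -3.26 to 0.83 for SOX9. The cause was not tested. RUNX2 was not tested under the filter of at least 1 CPM in 2 libraries, which it does not pass. The scalings tried turned no factor's direction. No paired analysis was possible because the labels do not say which libraries, if any, belong together. The titles of high replicate 2 and low replicate 2 share a letter, W. Those of high replicate 1 and low replicate 1 share a digit. The labels give no meaning for either. Depth limits SOX9, RUNX2 and LHX9, which have few counts.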
